A study of Mus musculus with 3 samples.

Results

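The hair shaft keratins are the structural keratins that fill the cells of the growing hair. A set of 10 genes was described here, chosen by name: the type I genes *Krt31*, *Krt32*, *Krt33a*, *Krt33b*, *Krt34* and *Krt35*, and the type II genes *Krt81*, *Krt83*, *Krt85* and *Krt86*. Of these, 9 had a row among the 32285 genes of the count matrices, and *Krt85* was not analysed here. Their molecules were counted in single cells of dorsal skin from 25-week-old female C3H/HeN mice, in 3 libraries with no replicate. The Neg library came from negative control mice given vehicle. The AA library came from mice with alopecia areata (AA), an autoimmune hair loss that is set off in this strain by transfer of cultured lymph node cells from affected mice. The AA+Ab library came from mice of the same model that had received a CXCL12-neutralizing antibody, which blocks a chemokine. Each library pooled skin from 7 to 8 mice, and the labels carry no deletion or transgene in any group, and mice within a pool cannot be told apart.

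In the bulb of the growing follicle, dividing matrix cells give rise to the hair shaft and to the inner root sheath around it. Cells that enter the shaft stop dividing and make hair keratins in a known order, in which a type I keratin pairs with a type II keratin to form filaments. *Krt35* and its type II partner *Krt85* come on first, low in the shaft. *Krt31*, *Krt33a*, *Krt33b*, *Krt34*, *Krt81*, *Krt83* and *Krt86* belong to the cortex, the main body of the shaft, and come on later, while *Krt32* is known from the cuticle, the outer layer of the shaft. The filaments are then embedded in keratin-associated proteins (KAPs).

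In GRCm38 (mm10), the 6 type I members with a row lay on chromosome 11 within 85.0 kb, from 100011195 to 100096241, all on the minus strand. The 3 type II members lay on chromosome 15 within 32.5 kb, from 101459061 to 101491512, with *Krt86* on the plus strand and *Krt81* and *Krt83* on the minus strand. All were annotated as protein-coding. Members are close copies of each other, and the transcripts of *Krt31* and *Krt33a* were identical at 93.9% of 1237 aligned bases, those of *Krt81* and *Krt86* at 95.5% of 1411. These libraries read the 3′ ends of transcripts, however, and of 451 windows of 50 bases in the last 500 bases, 27 of *Krt31* and 13 of *Krt33b* matched the other gene of this pair. None of the windows of the other 7 members matched any of the other genes compared. Reads of *Krt31* and *Krt33b* may therefore be mixed to a small degree.

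Promoter windows of 300 bases, from 250 before to 50 after the transcript start, were found in the RefSeq sequences (GRCm38.p6) for 4 members, *Krt31*, *Krt32*, *Krt33b* and *Krt34*. All 4 held CTTTGAA, a sequence of the kind bound by LEF1, which is highly expressed in matrix and early shaft cells. It was searched on both strands, and 5.14% of 32851 promoters of the same length hold it. Of 4 other hair keratins with a window (*Krt36*, *Krt39*, *Krt82* and *Krt84*), 1, *Krt39*, held it, at -19 on the opposite strand. The 4 members are close copies in the same gene cluster, so their matches are not independent. Its first base lay at -244 in *Krt31*, at -247 in *Krt32* and *Krt33b*, and at -240 and -133 in *Krt34*, counted from the start. TATAAA was found in the same 4 windows, against 13.6% of all promoters, and CTTTGTT in none of them, against 5.85%. The windows of *Krt31* (chr11:100050502-100050801, minus strand) and *Krt32* (chr11:100088220-100088519, minus strand) are shown because the UMIs of these members lay largely in different Neg cells. Neg cells with 3 or more *Krt35* UMIs, called *Krt35*-positive, held 91.0% of those of *Krt31* but 4.11% of those of *Krt32*. Of the 167 Neg *Krt31* UMIs, however, 140 were in 1 cell. In AA the shares were 21.7% of 23 *Krt31* UMIs and 1.10% of 1451 *Krt32* UMIs. By number, 4 of 19 Neg, 3 of 21 AA and 9 of 26 AA+Ab cells with a *Krt31* UMI were *Krt35*-positive. Capitals mark CTTTGAA.
Krt31: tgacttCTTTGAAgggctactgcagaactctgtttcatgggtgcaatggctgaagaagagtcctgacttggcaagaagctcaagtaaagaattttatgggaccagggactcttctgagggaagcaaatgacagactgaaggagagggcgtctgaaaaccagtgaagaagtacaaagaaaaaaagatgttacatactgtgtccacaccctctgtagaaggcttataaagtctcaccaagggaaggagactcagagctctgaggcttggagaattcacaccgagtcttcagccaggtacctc
Krt32: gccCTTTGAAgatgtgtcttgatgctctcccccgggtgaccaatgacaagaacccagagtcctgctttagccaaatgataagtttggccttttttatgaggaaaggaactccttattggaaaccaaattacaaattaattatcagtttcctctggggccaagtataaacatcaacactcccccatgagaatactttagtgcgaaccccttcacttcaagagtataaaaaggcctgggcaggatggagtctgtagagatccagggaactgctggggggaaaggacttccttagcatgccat
The motif stood near the same distance from the start in both, so its presence in these windows did not separate the members. A match is a run of letters and not a measured binding site.

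Cells were kept when mitochondrial UMIs (unique molecular identifiers, each 1 captured mRNA molecule) made up at most 10% and at least 200 genes were found. This left 6582 Neg, 10433 AA and 9832 AA+Ab cells, 26847 in all, with 119193310 to 139663314 UMIs per library. The median was 13694.5 UMIs per cell in Neg, 11177 in AA and 11371 in AA+Ab, so Neg cells were the deepest. Pairs of libraries shared 14 to 23 barcodes, with at most 1 *Krt35*-positive cell among them in any library. Levels are UMIs of a gene per 1000000 UMIs of the same cells (CPM). Intervals are at 95%, cover counting error only and treat each UMI as independent, and with 1 library per group no difference could be set against the spread between mice or libraries.

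*Krt35*, the type I keratin of the early shaft, was the most abundant member in every library and was lowest in AA. Over all cells it had 15103 UMIs in Neg, 10392 in AA and 15313 in AA+Ab, and made up 88.3%, 84.1% and 84.1% of all member UMIs. This gave 127 CPM (interval 125 to 129) in Neg, 76.6 (75.2 to 78.1) in AA and 109.6 (108 to 111) in AA+Ab. The ratio of AA to Neg was 0.605 (0.590 to 0.620), that of AA+Ab to Neg 0.865 (0.846 to 0.885) and that of AA+Ab to AA 1.43 (1.40 to 1.47). All 3 ratios lay beyond counting error and within 2-fold. With the level in cells with T cell genes subtracted, the ratio of AA+Ab to AA turned to 0.652, and with only those of these cells under 3 *Krt35* UMIs it was 1.48.

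**Figure D1:**
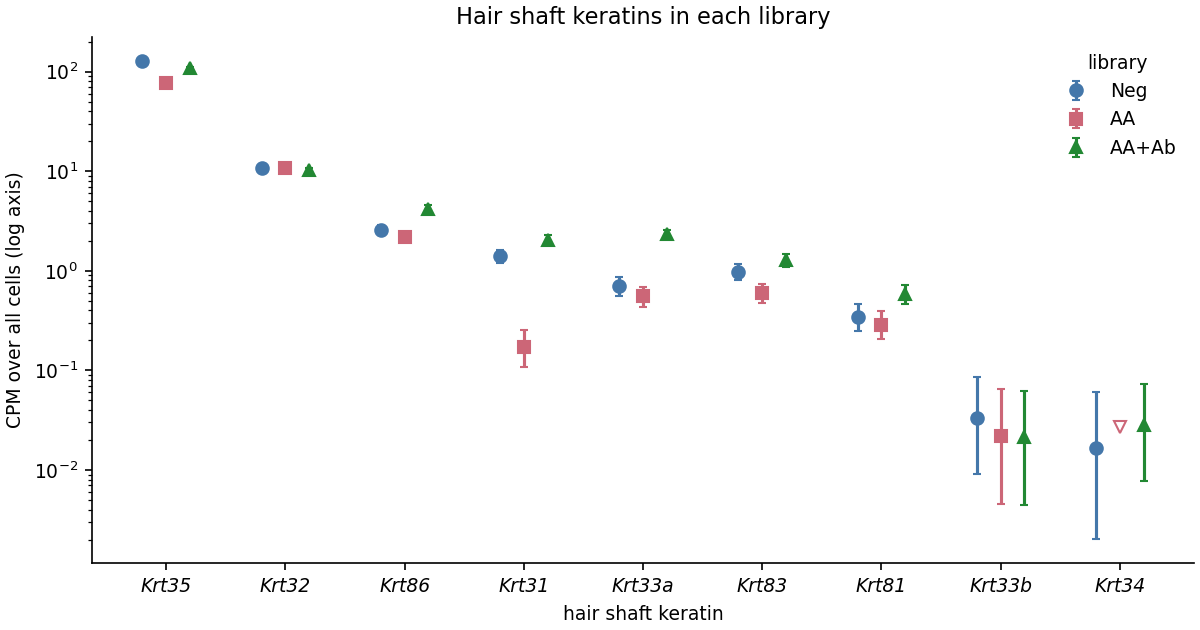
Level of each hair shaft keratin with a row, as CPM over all cells on a log axis, in Neg (circles), AA (squares) and AA+Ab (triangles), with bars for the exact Poisson interval at 95%. The open triangle marks the upper bound for *Krt34* in AA, where no UMI was counted. *Krt35* stands far above the others at 76.6 to 127 CPM, and *Krt32* lies near 10.7 CPM in every library.

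*Krt35* came from a small set of cells. The 32 Neg, 36 AA and 41 AA+Ab cells with the most *Krt35* UMIs held at least 50% of each library's total, and the highest cell had 623, 559 and 379 UMIs. *Krt35*-positive cells, those with 3 or more UMIs, numbered 283 of 6582 in Neg (4.30%, exact Clopper-Pearson interval 3.82 to 4.82), 291 of 10433 in AA (2.79%, 2.48 to 3.12) and 384 of 9832 in AA+Ab (3.91%, 3.53 to 4.31). They held 95.8%, 94.0% and 95.4% of all *Krt35* UMIs. Just outside the limit, 577, 567 and 638 cells had 1 to 2 *Krt35* UMIs, and just inside it 59, 73 and 95 cells had 3 to 5. Free RNA reaches cells that do not express a gene, and in cells with T cell genes (UMIs of at least 3 of 6 T cell receptor and CD3 genes) at least 1 *Krt35* UMI was found in 6.64% of 256 Neg cells, 5.24% of 420 AA cells and 7.51% of 413 AA+Ab cells, at medians of 5801, 4581.5 and 4655 UMIs. With 3 or more UMIs it was 2, 0 and 7 of these cells (0.781%, 0% and 1.69%), so the lower limit of 1 UMI would have counted background. The limit of 3 did not leave out all such cells. Doublet scoring marked 35 Neg, 23 AA and 40 AA+Ab *Krt35*-positive cells (12.4%, 7.90% and 10.4%), against 5.57%, 8.70% and 8.41% of all cells.

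The lower *Krt35* in AA went with a lower share of positive cells, while the pooled level within them was alike. Within *Krt35*-positive cells the pooled level was 1515 CPM (1490.0 to 1539.5) in Neg, 1541 (1511 to 1572) in AA and 1443 (1419.7 to 1467) in AA+Ab. The median of the single cells was less alike, at 591 CPM in Neg, 754 in AA and 519.6 in AA+Ab. The ratio of AA to Neg within these cells was 1.02 (0.992 to 1.04), while the share of cells was 0.649 times (0.549 to 0.767) that of Neg. For AA+Ab against Neg the ratio of the level was 0.953 (0.931 to 0.975) and that of the share 0.908 (0.777 to 1.06), so the share did not differ beyond counting error at a minimum of 3 UMIs. At a minimum of 10 UMIs it did, with 190 Neg cells (2.89%, 2.50 to 3.32) and 214 AA+Ab cells (2.18%, 1.90 to 2.48), a ratio of 0.754. *Krt35*-positive cells were also deep cells, with medians of 29048, 19402 and 24482 UMIs, and they carried 8.01% of all UMIs in Neg, 4.67% in AA and 7.25% in AA+Ab. After random thinning of each cell to 1000 UMIs (290, 86 and 158 shallower cells fell away), 3 or more *Krt35* UMIs were found in 0.826%, 0.677% and 0.827% of cells, and at least 1 in 3.13%, 2.27% and 2.79%. AA stayed lowest at equal depth, but by less. At 3 or more UMIs these shares rest on 52 Neg, 70 AA and 80 AA+Ab cells, and no interval was computed for the thinned shares. Because the level within positive cells is read from the gene that chose them, the likeness of its pooled value between libraries is a description.

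**Figure D2:**
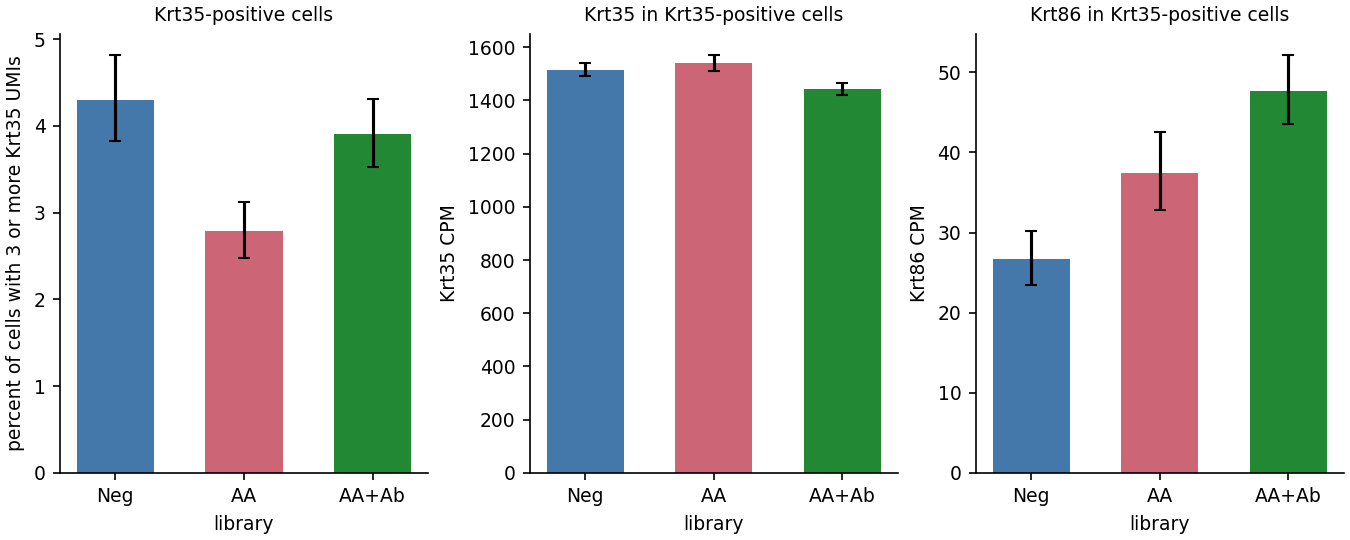
Share of cells that were *Krt35*-positive in percent (left), the *Krt35* CPM within those cells (middle) and the *Krt86* CPM within those cells (right), by library. Bars show the value and error bars the exact interval at 95%. The share is lowest in AA at 2.79%, the *Krt35* level lies between 1443 and 1541 CPM in all libraries, and *Krt86* goes from 26.7 CPM in Neg to 37.4 in AA and 47.7 in AA+Ab.

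Markers were read in these cells to see what they are. *Hoxc13*, a homeobox factor of the hair shaft, had a UMI in 95.4%, 95.2% and 95.6% of *Krt35*-positive cells of Neg, AA and AA+Ab, against 13.4%, 10.8% and 13.7% of other cells. The 7 shaft markers with a row summed to 2354, 2337 and 2082 CPM in them and to 39.2, 39.3 and 49.1 CPM in other cells, with *Krt35* itself, which chose the cells, as the main part and *Krt31*, *Krt81* and *Krt86* among them. The matrix markers *Shh*, *Wif1*, *Lef1* and *Msx2* summed to 891, 1264 and 969 CPM against 197, 208 and 239.5 CPM, mainly through *Lef1*. *Shh* alone stood at 4.19, 9.47 and 12.1 CPM, against 8.02, 7.73 and 12.3 CPM in other cells. Inner root sheath markers were present too, at 608, 634 and 562 CPM against 567, 357 and 401, and 31, 19 and 46 *Krt35*-positive cells also had 30 or more UMIs of these 5 genes. Of other cell types, T cell markers stood at 14.0, 3.95 and 27.2 CPM against 129.9, 99.2 and 140.1 in other cells, and basal epidermal markers at 2606, 1339.8 and 2080.4 CPM against 11927, 14010.5 and 12291. Fibroblast markers were at 251, 348 and 477 CPM, against 334, 425 and 375 in other cells, and melanocyte markers at 307, 71.8 and 96.1 CPM, against 451, 249 and 491. By share of cells with 3 or more UMIs, both lists were more frequent in *Krt35*-positive than in other cells, at 36.4%, 37.1% and 49.2% against 13.8%, 10.2% and 12.9% for fibroblast markers and at 40.3%, 16.8% and 39.8% against 25.8%, 5.90% and 20.6% for melanocyte markers, in cells that were also deeper. Suprabasal epidermal markers stood at 1245, 557 and 1341 CPM, against 2737, 2393 and 2938 in other cells, and were lowest in AA. The part of these lists in the levels of the members was not tested. Shaft markers thus set these cells apart, and RNA of other cell types was found among them.

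Of the members with at least 20 UMIs in both libraries compared, 7 could be read over all cells. In AA against Neg none was at least 2-fold higher (2.09% of 17354 genes were) and 1, *Krt31*, was at least 2-fold lower (1.72% of genes). The median log2 ratio of the 7 was -0.35, against -0.06 over all genes. In AA+Ab against Neg 1 member, *Krt33a*, was at least 2-fold higher (1.02% of 17395 genes) and none at least 2-fold lower (1.66%), with a median log2 ratio of 0.54 against -0.05. In AA+Ab against AA 4 members were at least 2-fold higher, *Krt31*, *Krt33a*, *Krt81* and *Krt83* (1.26% of 17389 genes), and none at least 2-fold lower (2.78%), with a median of 1.01 against 0.01. The 3 comparisons share libraries, so they do not count as separate evidence, and most of these members rest on few cells.

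The type II cortex keratin *Krt86* was the most abundant member after *Krt35* within the *Krt35*-positive cells. Over all cells it had 305, 294 and 584 UMIs in Neg, AA and AA+Ab, or 2.56 CPM (2.28 to 2.86), 2.17 (1.93 to 2.43) and 4.18 (3.85 to 4.53). *Krt35*-positive cells held 83.6%, 80.6% and 82.7% of these UMIs. Within them *Krt86* stood at 26.7 CPM (23.5 to 30.2) in Neg, 37.4 (32.8 to 42.5) in AA and 47.7 (43.5 to 52.2) in AA+Ab, against 0.441 to 0.780 CPM in the other cells of the 3 libraries. Here AA was above Neg by 1.40-fold (1.17 to 1.68), AA+Ab above Neg by 1.79-fold (1.53 to 2.09) and AA+Ab above AA by 1.28-fold (1.09 to 1.50), each beyond counting error and under 2-fold. At an equal depth of 1000 UMIs per cell these ratios were 1.12, 2.21 and 1.98. They rest on few UMIs, since only 10 Neg, 13 AA and 21 AA+Ab cells in all then had a *Krt86* UMI. As a mean over cells the ratio of AA+Ab to AA was 1.66, so its size depended on the weighting of cells. Whether depth or counting error moved the thinned ratios was not tested. Over all cells AA was below Neg instead, at 0.847 times (0.719 to 0.998), and AA+Ab to Neg went from 1.63 to 0.915 when the level in cells with T cell genes was subtracted. That level rests on 1 *Krt86* UMI in Neg and 8 in AA+Ab, the latter in 4 cells. Of these T cell gene-bearing cells, 2 of 256 in Neg and 7 of 413 in AA+Ab were *Krt35*-positive. Those with no *Krt35* UMI had 0 *Krt86* UMIs in every library. A *Krt86* UMI was found in 115 of 283 Neg cells (40.6%), 102 of 291 AA cells (35.1%) and 193 of 384 AA+Ab cells (50.3%). The share in AA was below that in Neg while the CPM was above it, and the AA cells were shallower, so no order of these libraries is read from the shares. No single cell set the level, since the highest *Krt86* cell held 9.18%, 6.46% and 1.88% of all *Krt86* UMIs.

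*Krt83* and *Krt81*, the other type II cortex keratins, were scarcer. *Krt83* had 116, 81 and 177 UMIs over all cells, or 0.973, 0.597 and 1.27 CPM, with 67.2%, 50.6% and 75.7% of them in *Krt35*-positive cells. Within these it was at 8.17 CPM (6.46 to 10.2) in Neg, 6.47 (4.64 to 8.78) in AA and 13.2 (11.1 to 15.7) in AA+Ab, a ratio of AA+Ab to AA of 2.05 (1.43 to 2.98). Without the 1% of positive cells that held the most member UMIs this ratio was 1.65. *Krt81* had 41, 39 and 81 UMIs and at most 7 in any cell, with 3.77, 4.89 and 4.94 CPM in *Krt35*-positive cells. The ratio of AA to Neg was 1.30 (0.776 to 2.16), that of AA+Ab to Neg 1.31 (0.837 to 2.07) and that of AA+Ab to AA 1.01 (0.632 to 1.63). Each interval covers no change, so a difference in *Krt81* was not resolved within these cells, from 36, 31 and 50 UMIs. Outside them *Krt81* was at 0.0456, 0.0619 and 0.239 CPM, where the AA+Ab library had 31 of its 81 UMIs.

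In *Krt35*-positive cells 4 members had at least 20 UMIs in both AA and Neg, *Krt32* not being among them with 16 UMIs in AA. Of these none was at least 2-fold higher (0.495% of 10703 genes) or lower (1.31%). In AA+Ab against Neg 7 members could be read, with *Krt33a* at least 2-fold higher (0.312% of 11226 genes) and *Krt32* at least 2-fold lower (1.81%). In AA+Ab against AA 4 could be read, with *Krt83* at least 2-fold higher (0.516% of 10659 genes) and none lower (1.69%). *Krt35* is 1 of the members in each count, although it chose the cells.

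*Krt31* and *Krt33a*, type I keratins of the cortex that follow *Krt35*, had much of their UMIs in few cells in Neg and AA+Ab. In AA they were spread thinly, over 21 cells with at most 2 *Krt31* UMIs and 67 cells with at most 6 *Krt33a* UMIs. *Krt31* had 167 UMIs in Neg, 23 in AA and 284 in AA+Ab, and 1 Neg cell held 140 of the 167. *Krt33a* had 84, 75 and 326 UMIs, and the same Neg cell held 42 of the 84. Cells with 10 or more UMIs of either gene numbered 1 of 6582 in Neg, 0 of 10433 in AA and 6 of 9832 in AA+Ab (0.0610%, 0.0224 to 0.133). A count of 0 in AA allows a share of up to 0.0288% when 3 counts are taken as the limit, and up to 0.0354% by the exact interval. All 7 cells were *Krt35*-positive. The 6 AA+Ab cells held 262 of 284 *Krt31* UMIs and 233 of 326 *Krt33a* UMIs.

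Outside these 7 cells, *Krt31* stood at 0.227, 0.170 and 0.158 CPM in Neg, AA and AA+Ab, and *Krt33a* at 0.353, 0.553 and 0.667 CPM. The large ratios over all cells, 0.121 for *Krt31* in AA against Neg, 12.0 for *Krt31* and 4.22 for *Krt33a* in AA+Ab against AA, therefore rest on 7 cells. They also depended on the mitochondrial limit, since without it the *Krt31* ratio was 0.217 for AA to Neg and 6.33 for AA+Ab to AA, and 0.0276% of AA barcodes had 3 or more *Krt31* UMIs in place of 0. For *Krt31* the direction turned when the 1% of cells richest in member UMIs was left out, with ratios of 1.02, 0.901 and 0.882 for AA to Neg, AA+Ab to Neg and AA+Ab to AA. The highest AA+Ab cell had 125 *Krt31*, 139 *Krt33a*, 344 *Krt35* and 22 *Krt83* UMIs among 42303, and the Neg cell 140, 42, 187 and 15 among 44866. Another AA+Ab cell had 24 *Krt31*, 24 *Krt33a*, 11 *Krt83*, 8 *Krt86* and 7 *Krt81* UMIs but only 4 of *Krt35*, in 3425 UMIs in all, and members made up 2.28% of its RNA, the highest share in any *Krt35*-positive cell. These cells also carried KAP RNA: *Krtap8-1* had 99 UMIs in the Neg cell and 175, 75, 142, 26, 29 and 0 in the 6 AA+Ab cells. In the cell with 0, which had 20 *Krt33a* and 6 *Krt35* UMIs, *Mki67* and *Top2a*, genes of dividing cells, had 8 and 11 UMIs.

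**Figure D3:**
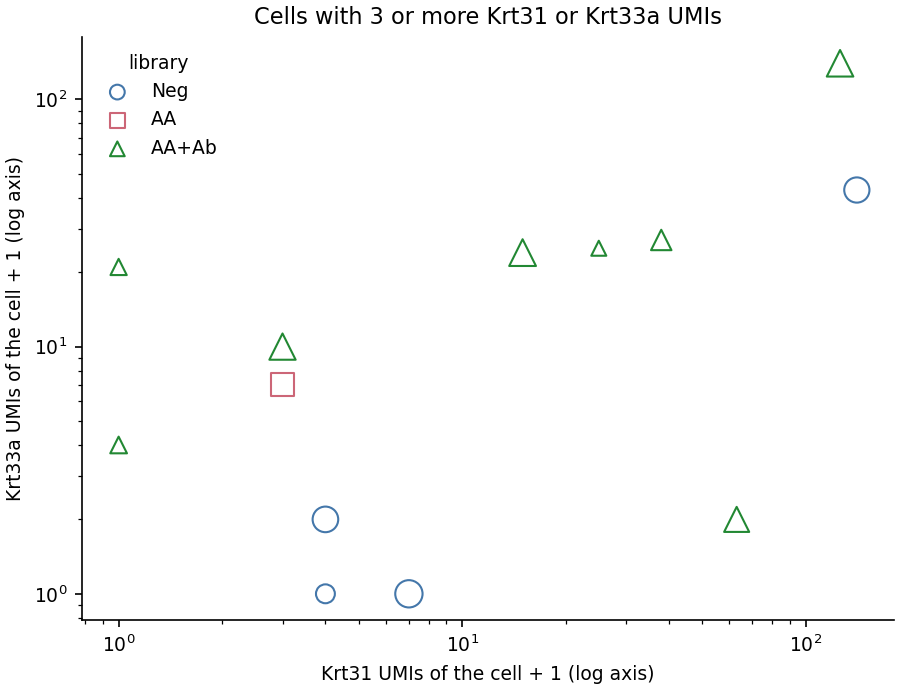
Each point is 1 cell with 3 or more UMIs of *Krt31* or *Krt33a*, placed by its *Krt31* UMIs and its *Krt33a* UMIs, each plus 1 on a log axis, with symbols for the library and larger symbols for more *Krt35* UMIs. Cells rich in both are 1 Neg and 4 AA+Ab cells, and the only AA cell has 2 *Krt31* and 6 *Krt33a* UMIs.

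*Krt33b* and *Krt34*, also type I cortex keratins, were close to absent. *Krt33b* had 4, 3 and 3 UMIs and *Krt34* 2, 0 and 4 UMIs in Neg, AA and AA+Ab, with at most 2 in any cell. For *Krt34* in AA the upper bound is 0.0272 CPM. No fold is given for either gene at these counts.

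Across *Krt35*-positive cells, *Krt86*, *Krt83* and *Krt81* were highest where *Krt35* was highest. Cells were placed in 4 bins by their *Krt35* CPM: under 300, 300 to 1000, 1000 to 3000, and 3000 or more. The bins held 90, 79, 62 and 52 Neg cells, 83, 87, 63 and 58 AA cells, and 133, 113, 72 and 66 AA+Ab cells. The median depth went from 34466.5 UMIs in the lowest to 25301.5 in the highest bin of Neg, from 25279 to 16867 in AA and from 27431 to 20580 in AA+Ab. *Krt86* went from 8.48 CPM in the lowest bin through 14.5 and 34.9 to 77.4 in Neg, from 8.36 through 23.1 and 55.8 to 113 in AA, and from 13.6 through 33.2 and 83.7 to 129 in AA+Ab. Within the same *Krt35* bin, AA+Ab was above Neg for *Krt86* with intervals apart in the 3 upper bins, while in the lowest bin they overlapped. *Krt83* went from 1.09 to 29.7 CPM in Neg, 2.09 to 20.1 in AA and 2.02 to 52.4 in AA+Ab between the lowest and highest bin. *Krt31* in the highest bin was at 96.1, 2.01 and 145 CPM and *Krt33a* at 28.4, 9.05 and 125 CPM, from 3, 1 and 6 cells with a *Krt31* UMI and 3, 3 and 6 with a *Krt33a* UMI. *Krt32* had no such order, with 2.46 CPM in the lowest and 6.45 in the highest bin of Neg and 2.53 and 0.708 CPM in AA+Ab.

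The genes of dividing cells went the other way. *Mki67* went from 297 CPM in the lowest to 138 in the highest *Krt35* bin of Neg, from 429.9 to 48.3 in AA and from 385 to 14.9 in AA+Ab, although the second bin was the highest in Neg, at 375 CPM. *Shh*, a signal of matrix cells, was at 6.02, 20.9 and 25.5 CPM in the lowest bin and had 0 UMIs in the highest bin of every library, with no steady order between them in Neg and AA. *Hoxc13* was at 179, 188 and 209 CPM in the lowest bin and at 349.6, 507 and 406 in the highest. The cells with the most *Krt35* thus had the least *Mki67* and the most *Krt86* and *Krt83*. The correlation of *Krt86* with *Krt35* over these cells (log2 of counts per 10000 plus 1) was 0.47 over 283 Neg cells, 0.42 over 291 AA cells and 0.50 over 384 AA+Ab cells, and cells of a library share its depth and pool.

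**Figure D4:**
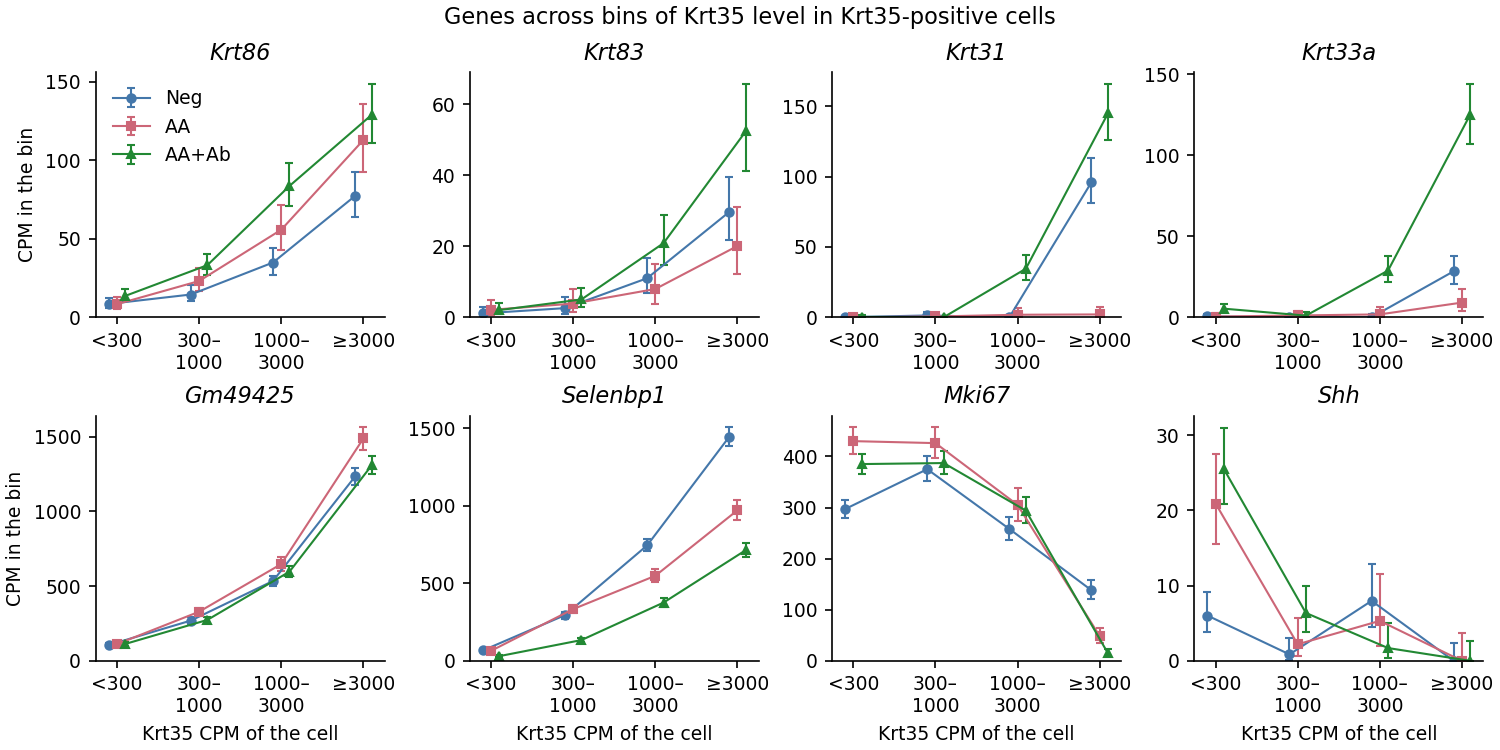
Mean level of 8 genes (CPM on the vertical axis) in 4 bins of *Krt35* CPM (horizontal axis) within *Krt35*-positive cells, for Neg (circles), AA (squares) and AA+Ab (triangles), with exact Poisson intervals at 95%. *Krt86*, *Krt83*, *Gm49425* and *Selenbp1* are highest in the top bin, *Krt31* and *Krt33a* are highest in the top bin, and *Mki67* and *Shh* are lowest in the top bin.

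*Krt32* behaved unlike the rest. It was the second most abundant member, with 1289, 1451 and 1444 UMIs, and its level over all cells hardly moved, at 10.8 CPM (10.2 to 11.4) in Neg, 10.7 (10.2 to 11.3) in AA and 10.3 (9.81 to 10.9) in AA+Ab. The ratio of AA to Neg was 0.989 (0.917 to 1.07). Only 4.11%, 1.10% and 1.73% of its UMIs were in *Krt35*-positive cells, where it was lower (5.55, 2.52 and 2.47 CPM) than in the other cells (11.3, 11.1 and 11.0 CPM). Within *Krt35*-positive cells the ratio of AA to Neg turned to 1.95 after thinning to 1000 UMIs, from few UMIs. Cells with 10 or more UMIs each of the basal genes *Krt5*, *Krt14* and *Krt15* had 16.4, 15.7 and 16.4 CPM, and cells with 10 or more each of the suprabasal genes *Krt1* and *Krt10* had 17.0, 14.9 and 15.8 CPM. The UMIs were spread thinly, with at most 11 in a cell and a UMI in 14.3%, 10.6% and 11.1% of all cells. Of 13766 genes that reached 100 UMIs per library, the 1 most like *Krt32* over cells was *Krt15*, a keratin of basal and follicle stem cells, with correlations of 0.28, 0.25 and 0.27, and sparse counts make such values weak. In cells with T cell genes *Krt32* was at 13.5 CPM in Neg and at 3.28 and 3.46 CPM in AA and AA+Ab, so in Neg it was no lower there than elsewhere. After thinning to 1000 UMIs, no T cell gene-bearing cell had a *Krt32* UMI, while 1.96%, 1.71% and 1.72% of the basal gene-bearing cells did.

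*Krt83* was also found in cells with T cell genes, a pattern chosen after its values were seen. Among cells with T cell genes and no *Krt35* UMI, 3 of 239 in Neg (1.26%, 0.260 to 3.62), 12 of 398 in AA (3.02%, 1.57 to 5.21) and 10 of 382 in AA+Ab (2.62%, 1.26 to 4.76) had a *Krt83* UMI. The same cells had 0 UMIs of *Krt86*, *Krt81* and *Krt31* in every library, but 0, 2 and 3 UMIs of *Krt33a*, 35, 7 and 13 of *Krt32* and 4, 5 and 6 of *Gm49425*, and they had medians of 5747, 4573 and 4595 UMIs. Other *Krt35*-negative cells outside the T cell and fibroblast gates, at medians of 13550, 11253 and 11347 UMIs, had a *Krt83* UMI in 0.383%, 0.229% and 0.344%. The intervals of the cells with T cell genes lay above those of the other cells in AA and AA+Ab and overlapped in Neg. These T cell gene-bearing cells held 3, 15 and 11 of the 116, 81 and 177 *Krt83* UMIs. Of the carrying cells, 0, 8 and 2 had a UMI of *Cd8a*, of cytotoxic T cells, as had 10, 176 and 56 of all the cells with T cell genes and no *Krt35* UMI. A UMI of *Trdc*, of gamma-delta T cells, was found in 3, 1 and 4 carrying cells and in 167, 105 and 203 of all.

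The gene most like the summed members over all cells was *Gm49425* (ENSMUSG00000116336), with correlations of 0.69 in Neg, 0.72 in AA and 0.70 in AA+Ab, over 6582, 10433 and 9832 cells that share their library's depth. It was followed by *Dsg4*, a desmosomal cadherin of the shaft, *Cybrd1*, *Dclk3*, *Selenbp1*, *Hoxc13*, *Kcnh1*, *Krt87*, *Tdh* and *Hes2*, with lowest correlations from 0.51 to 0.32. *Gm49425* is annotated as protein-coding beside the type II members (GRCm38, chromosome 15, 101515920 to 101517261, minus strand), with a tag for an error in the reference genome. Its transcript model of 985 bases matched that of *Krt87*, another type II hair keratin gene, at 98.7% of 956 aligned bases, and 54.5% of its 3′ windows were shared with *Krt87*, so reads of these 2 genes may be split between them. *Krt85* had no row, and whether reads of that member were counted under *Gm49425* was not tested. It had 4640, 3705 and 5144 UMIs, or 38.9, 27.3 and 36.8 CPM over all cells, and was lowest in AA like *Krt35*. In *Krt35*-positive cells it had a UMI in 91.2%, 88.3% and 89.8% of cells and stood at 419.6, 486 and 411 CPM. From the lowest to the highest *Krt35* bin it rose from 106 to 1235 CPM in Neg, 112 to 1489 in AA and 113 to 1308 in AA+Ab. When cells were chosen by 3 or more *Gm49425* UMIs in place of *Krt35*, *Krt86* in AA and in AA+Ab was 1.49 and 1.70 times its Neg level.

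Other genes of the shaft were read in *Krt35*-positive cells as lists. Of 57 KAP genes, whose products crosslink the filaments, 15, 11 and 13 had a UMI there in Neg, AA and AA+Ab, and they summed to 73.0 CPM (67.7 to 78.6), 41.7 (36.8 to 47.0) and 173 (165 to 181). Most KAP UMIs lay outside these cells, which held 697 of 2322 in Neg, 264 of 2279 in AA and 1750 of 5924 in AA+Ab. *Krtap8-1* led in each library with 30.3, 18.5 and 99.8 CPM in *Krt35*-positive cells. Of its UMIs there, 99 of 289 in Neg and 175 of 1010 in AA+Ab came from the cell richest in *Krt31*. In AA+Ab another 142, 75, 29 and 26 came from other cells rich in *Krt31* or *Krt33a*, so few cells held much of this level. The other hair keratins *Krt36* and *Krt39* stood at 10.8, 8.52 and 8.59 CPM and at 4.19, 5.68 and 2.57 CPM, *Krt82* and *Krt84* had at most 4 UMIs, and *Krt40* had none. Of the shaft proteins and enzymes, 1 of 11, *Calm4*, was at least 2-fold lower in AA against Neg (1.31% of all genes were), and 1 of 10, *Selenbp1*, at least 2-fold lower in AA+Ab against Neg (1.81%). In AA+Ab against AA 1 of 10, *Calm4*, was at least 2-fold higher (0.516%). *Calm4*, which encodes a calmodulin-like protein of epithelia, stood at 98.0, 36.3 and 143 CPM. Over all cells it was higher, at 268, 198 and 311 CPM, so *Calm4* did not mark the *Krt35*-positive cells. The suprabasal epidermal markers given above were also lowest in AA in these cells, and their part in the *Calm4* values was not tested. *Selenbp1*, which encodes a selenium-binding protein, stood at 489, 371 and 217 CPM in Neg, AA and AA+Ab, the reverse order of *Krt86*. Of the transcription factors 14 could be read in AA against Neg, with a median log2 ratio of 0.13 against 0.04 over all genes. Of these only *Gata3*, a factor of the inner root sheath, passed 2-fold, at 105, 42.8 and 50.4 CPM. Of all genes 1.31% were at least 2-fold lower in AA against Neg and 0.495% higher. Like *Calm4*, *Gata3* was higher over all cells, at 288, 245 and 221 CPM. The part of epidermal RNA in its values was not tested. *Hoxc13* stood at 257, 304 and 296 CPM, and *Lef1*, a factor of Wnt signalling, at 694, 1021 and 708 CPM. None of the 10 cell cycle genes passed 2-fold in any of the 3 comparisons. Of all genes at most 0.516% were higher and at most 1.81% lower in any of them, so this does not set the cell cycle genes apart.

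The inner root sheath and interferon lists set these values in context. Cells with 30 or more UMIs of 5 inner root sheath genes made up 5.99% of Neg (5.42 to 6.59), 3.12% of AA (2.80 to 3.48) and 3.97% of AA+Ab cells (3.59 to 4.37). By this limit the sister lineage had its lowest share in AA as well. The limit takes no account of depth, AA cells were the shallowest, and no thinned share was computed. *Krt35*-positive cells numbered 0.718, 0.893 and 0.985 per such cell in Neg, AA and AA+Ab. Over all cells 9 of 15 interferon-response genes were at least 2-fold higher in AA against Neg (2.09% of 17354 genes were), with a median log2 ratio of 1.41 against -0.06 over all genes. Melanocyte markers moved with the libraries in *Krt35*-positive cells, as given above, and their part in the differences of *Selenbp1* and *Krt86* was not tested.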

How the data were processed

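Single-cell 3′ libraries (10x Genomics v3.1) were made by the authors from pooled, dissociated dorsal skin, sequenced, aligned to mm10 and counted with Cell Ranger 7.2.0 (FastQC 0.11.7 is also named in the submitters' processing notes). The matrices as deposited contain raw UMI counts for every gene in every barcode, with no normalization by the authors and no filter beyond cell calling. The annotation release is not given in the sources used here. Coordinates were taken from GENCODE vM21 by gene ID.

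Only cells with at most 10% mitochondrial UMIs and at least 200 genes entered. CPM is the sum of a member's UMIs in a library, per 1000000 UMIs of those cells. Poisson, Clopper-Pearson and conditional binomial intervals (95%) cover counting error only. With 1 library per group no test was made. Shares of genes past 2-fold were counted over genes with at least 20 UMIs in both libraries. The ratio step was tested on simulated data. Doublets were kept in the main values. In an alternative they were scored with Scrublet in scanpy 1.11.5 and removed at 0.8% per 1000 barcodes (367, 908 and 826 cells). Python 3.11.15, SciPy 1.17.1, Biopython 1.88 and matplotlib 3.10.9 were used.

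Genes other than the members were named by fixed lists, as the 10 genes most like the summed members, and by rank of the ratio in *Krt35*-positive cells (5 at either end) for AA against Neg and AA+Ab against AA. *Gm49425* met that rule, and it was singled out, with *Krt83* in T cells, after its values were seen. The members and all lists were chosen with earlier results of these data known. The interferon list within *Krt35*-positive cells is not reported here.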

Additional observations from a re-analysis of the deposited data

How the results depend on the processing

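Of 114 values that answer a comparison under an alternative, 86 moved by less than their counting interval, 27 moved by more and 1 changed direction. Of 1004 others, 698 stayed within it, 301 moved and 5 changed direction. The causes were not tested. For the ratio of *Krt35* over all cells, in the order AA to Neg, AA+Ab to Neg and AA+Ab to AA, removal of doublets gave 0.677, 0.921 and 1.36, the mean over cells of each cell's CPM 0.656, 0.819 and 1.25, thinning to 1000 UMIs 0.715, 0.825 and 1.15, and leaving out the 1% of cells with the most member UMIs 0.456, 0.775 and 1.70. Subtracting the level in cells with T cell genes gave 0.907, 0.592 and 0.652, which turned the direction of the last. With only those T cell gene-bearing cells under 3 *Krt35* UMIs, an alternative chosen after seeing the data, it was 0.564, 0.837 and 1.48. A mitochondrial limit of 5% gave 0.589 for AA to Neg, a denominator that excludes mitochondrial, hemoglobin and ribosomal protein genes 0.587 for AA to Neg and 1.48 for AA+Ab to AA, and leaving out the highest *Krt35* cell of each library, also chosen after seeing the data, 1.47 for AA+Ab to AA. For *Krt86* in *Krt35*-positive cells thinning gave 1.12, 2.21 and 1.98, from few UMIs, and the mean over cells 1.66 for AA+Ab to AA. The ratio of the share of *Krt35*-positive cells was 0.819 for AA to Neg after thinning and 0.754 for AA+Ab to Neg with a minimum of 10 UMIs. Among single members the direction turned for *Krt31* over all cells without the top 1% of cells (1.02, 0.901 and 0.882), for *Krt32* in *Krt35*-positive cells after thinning (1.95 for AA to Neg), and for *Krt86* over all cells with the T cell gene level subtracted (0.915 for AA+Ab to Neg). The subtracted *Krt86* level rests on 1 UMI in Neg and 8 in AA+Ab, and some of the cells used were *Krt35*-positive. Choosing cells by *Krt85* was not run, since it had no row. No paired analysis was possible because each group is 1 library. The spread between mice is not known, and members other than *Krt35* and *Krt32* rest on at most 584 UMIs in a library.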

Other observations

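Among genes with at least 20 UMIs in the *Krt35*-positive cells of both libraries compared, pigment cell genes were prominent at the low end of AA against Neg. *Mlana* stood at 65.2 CPM in Neg and 7.73 in AA (ratio 0.119, interval 0.0868 to 0.159), *Pmel*, a structural protein of melanosomes, at 78.1 and 10.1 CPM (0.129, 0.0986 to 0.167), and *Trpm1*, a channel found in melanocytes, at 24.7 and 3.47 CPM (0.140, 0.0864 to 0.218). The other genes there were *Defb6*, a beta-defensin, with a ratio of 0.125, and *Cst6*, a cystatin of cornifying epithelium, with 0.140. At the high end stood *Mapk4* with 3.98, *Irf9*, a factor of interferon signalling, with 3.56, *Acsm3* with 3.42, *Tubb3* with 3.24 and *Gm42047* with 3.15.

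For AA+Ab against AA, under the same limit, which leaves out *Krt31*, *Krt33a* and *Krtap7-1* with 5, 14 and 12 UMIs in AA, the high end was led by *Krtap8-1* at 99.8 against 18.5 CPM (ratio 5.40, 4.46 to 6.60), followed by *Gm94* with 4.98, *Defb6* with 4.92, *Calm4* with 3.94 and *Ly6g6c* with 3.86. At the low end stood *Isg15*, an interferon-induced gene, at 2.86 against 17.5 CPM (0.164, 0.105 to 0.248), *Chn2* with 0.183, *Tchh*, trichohyalin of the inner root sheath and medulla, at 32.9 against 143 CPM (0.230, 0.202 to 0.261), *Fap* with 0.232 and *Krt16*, a keratin of the companion layer and of stressed epidermis, at 11.1 against 42.9 CPM (0.258, 0.205 to 0.322). Intervals cover counting error only, and each ratio compares single libraries. Much of the *Krtap8-1* level in AA+Ab came from few cells, as given above.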
